A study of Homo sapiens with 6 samples.

Results

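The genes described here are the numbered zinc finger genes of human chromosome 19, taken as every feature of the deposited table whose platform gene symbol starts with ZNF and a digit and whose gene lies on chromosome 19 in the RefSeq gene table. The rule found 238 features of 231 genes, of 14884 genes in all, and used no difference between the samples. Several features measured 6 of the genes, and the brightest on average was taken. Of the 231 genes, 225 code for protein, 5 are long non-coding transcripts with a ZNF symbol and 1 is a transcribed pseudogene. They cover 225 of the 250 protein-coding ZNF genes that RefSeq lists on this chromosome, and the remaining ones were not analysed here.

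Most proteins of this family carry a row of C2H2 zinc fingers, each of which holds a zinc ion and reads a few bases of DNA, behind a KRAB domain. The KRAB domain recruits the scaffold protein TRIM28, which brings in the methyltransferase SETDB1, the HP1 proteins and histone deacetylases, so that the bound DNA is packed into heterochromatin marked by H3K9 methylation. Many of these proteins repress transposable elements, and their genes arose by tandem duplication, which left them in clusters of near relatives along chromosome 19. Promoters of single ZNF genes of this chromosome are known to become methylated in colorectal and other tumours, so the question put to the arrays was whether single genes or whole clusters were low in the spheroids of 1 line.

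SW620 is a colorectal cancer line grown from a lymph node metastasis, and SW480 is a line grown from a primary tumour, as background from the same patient; both grew as floating spheres without serum and with added growth factors, and no other treatment or genetic change is given in the labels. Each line had 3 arrays, which the series' design text calls technical replicates, so the p-values measure the spread between such arrays and not between separate cultures, and a difference is one between 2 cell lines. In bulk RNA, fewer cells of a type and less RNA per cell cannot be told apart.

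The values are log2 expression values made by the authors with RMA, from 1.99 to 13.9, and no depth exists for arrays, whose number limits the precision. The median of an array lay between 4.04 and 4.07, and arrays of the same line correlated with r from 0.988 to 0.992 across 53616 features, against 0.963 to 0.965 for arrays of different lines. Of 11 colorectal epithelial markers 9 were measured. EPCAM read 9.61 in SW620 and 9.71 in SW480, and KRT18 read 11.7 and 11.6 in the same order of lines. In the test described below 4 of the 9 were called (44.4%), against 35.6% of all genes. VIL1, KRT19 and KRT8 were higher in SW620, and CDX2 was lower, at 4.68 in SW620 and 6.22 in SW480. KRT20 and CDX1 lay below the median feature in both lines. CD14, the measured leukocyte marker, DCN, the measured fibroblast marker, and the 3 measured endothelial markers all lay below the median feature too. The median feature had a mean of 4.06 and the 25th percentile feature one of 3.53, and these serve below as marks of a dim and of a near-floor signal.

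In limma's moderated test, with Benjamini-Hochberg adjustment over all genes, 27 of the 231 genes (11.7%) were higher in SW620 and 64 (27.7%) were lower, at an adjusted p below 0.05. Over all 14884 genes, 35.6% were called, 16% higher and 19.5% lower. The members' share of called genes, 39.4%, was thus near that background, and their lower calls outnumbered the higher ones by more than those of all genes did. The median difference of the members was -0.0451 and that of all genes 0.0132. ZNF genes on other chromosomes had 44 of 260 genes higher (16.9%) and 60 lower (23.1%), with a median of -0.00210. Other genes of chromosome 19 had 78 of 850 higher (9.18%) and 181 lower (21.3%), with a median of -0.0261. The preponderance of lower calls was therefore not limited to zinc finger genes on this chromosome, and no test set these groups against each other.

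Signal strength bears on these counts. Of the members, 63 lay below the median feature in both lines and 153 above it in both. Among the 166 members with a mean above the median feature 25 were higher and 57 lower, while among the 65 dimmer ones 2 were higher and 7 lower. All genes showed the same dependence, with 49.8% of 9475 brighter genes called and 10.5% of 5409 dimmer ones. For a dim member that was not called, silence in both lines and weak measurement cannot be told apart, and detection calls were not used here.

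Differences were small. Of the 91 called members, 53 differed by less than 1.5-fold, and 12 (5.19%) differed by at least 2-fold, against 6.07% of all genes. Of these 12, 5 were higher in SW620 (2.16% of members, against 2.32% of all genes) and 7 lower (3.03%, against 3.76%). The arrays of the lines did not overlap for 100 members (43.3%), against 45.7% of all genes.

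**Figure D1:**
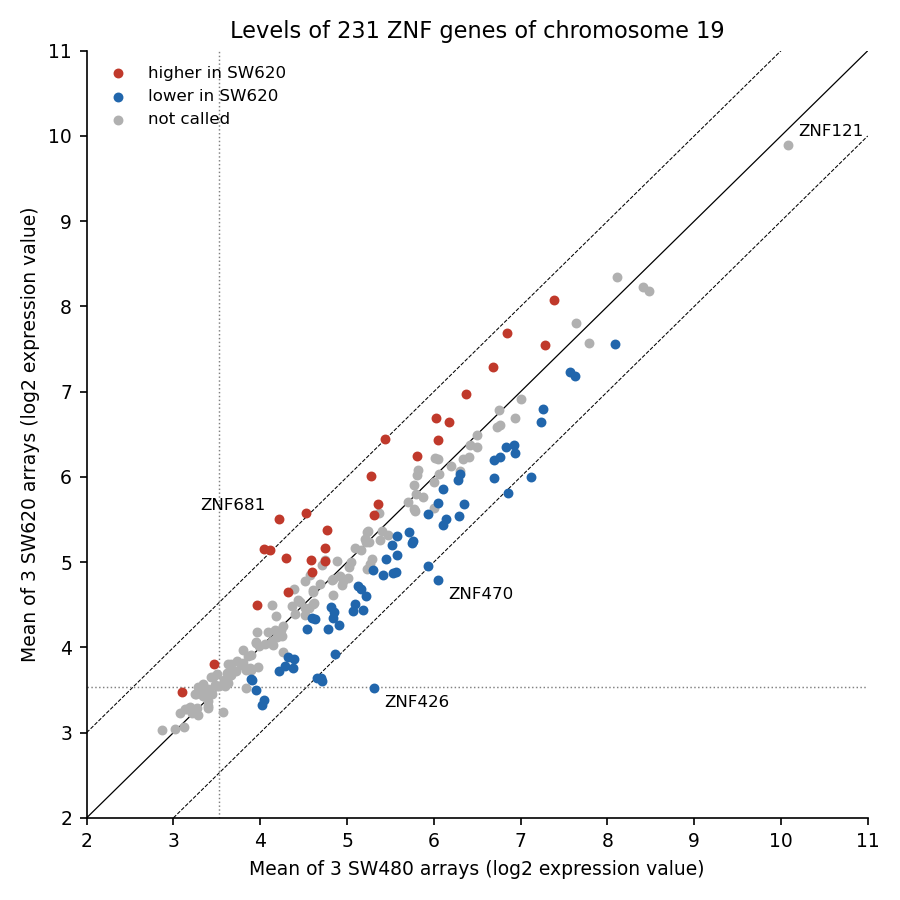
Mean log2 expression value of each of the 231 genes in SW620 (vertical axis) against SW480 (horizontal axis), over 3 arrays each. The solid line marks equal values, the dashed lines a 2-fold difference and the dotted lines the 25th percentile feature (3.53). Most genes lie within the dashed lines, and ZNF426 lies at the dotted line in SW620 and well above it in SW480.

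A level near the floor in 1 line and clearly above it in the other was found for a single member, ZNF426. Its values were 3.41, 3.52 and 3.63 in SW620, against 5.42, 5.16 and 5.36 in SW480. All 3 SW620 arrays lay far below the lowest SW480 array. The mean was 3.52 ± 0.110 in SW620 and 5.31 ± 0.138 in SW480 (SD, n = 3 each), a 3.47-fold lower signal (log2 difference -1.80, standard error 0.0969, limma adjusted p = 1.09e-08). Such a pattern, with SW620 below the 25th percentile feature and SW480 above the median feature, was met by 0.43% of all genes. The reverse pattern, near the floor in SW480 only, was met by 0 members, against 0.202% of all genes (30 genes); at an unadjusted p below 0.05 and at a 2-fold difference it was again met by 0 members. The SW620 mean of ZNF426 lay only just under the mark. Without SW620 replicate 1 the count was 0, and without SW620 replicate 2 it was 2, the further gene being ZNF492, named here after its values were seen.

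The other members that fell at least 2-fold in SW620 had a mean of the 3 arrays above the floor mark there. ZNF470 read 4.84, 5.04 and 4.48 in SW620, against 6.07, 6.08 and 6.004 in SW480. The difference was -1.26 (standard error 0.121, limma adjusted p = 2.73e-06), and no SW620 array came near the SW480 arrays. ZNF283 read 6.10, 6.21 and 5.68 in SW620 and 7.03, 7.05 and 7.28 in SW480. That is a 2.18-fold lower signal at levels well above the median feature in both lines. ZNF581, whose product has zinc fingers and no KRAB domain, read 5.82, 5.65 and 5.95 in SW620 and 7.01, 6.95 and 6.60 in SW480, and the groups did not overlap.

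ZNF331, ZNF844 and ZNF492 were dim in SW620 and above the median feature in SW480. ZNF331, a gene whose promoter is known to be methylated in colorectal tumours, read 3.61, 3.64 and 3.55 in SW620, against 4.66, 4.86 and 4.62 in SW480. Its arrays were tight in both lines and differed by -1.11 (standard error 0.0899, limma adjusted p = 5.57e-07). ZNF844 read 3.58, 3.70 and 3.66 in SW620 and 4.55, 4.65 and 4.91 in SW480, a 2.08-fold lower signal. ZNF492 read 3.68, 3.94 and 3.29 in SW620 and 4.77, 4.71 and 4.48 in SW480. The SW620 arrays of ZNF492 were the most scattered of these genes, and still lay below every SW480 array. RMA can understate a fold so close to the floor.

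Among the members that rose at least 2-fold in SW620, ZNF681 led. It read 5.34, 5.45 and 5.74 in SW620, against 4.11, 4.07 and 4.47 in SW480. SW480 was thus near the median feature and SW620 well above it, a 2.45-fold difference (1.29, standard error 0.126, limma adjusted p = 3.19e-06). ZNF93, which as background represses LINE elements, read 4.88, 5.29 and 5.29 in SW620 and 4.28, 3.90 and 3.95 in SW480 (1.11, standard error 0.130). ZNF486 read 5.27, 5.10 and 5.06 in SW620 and 4.07, 4.02 and 4.23 in SW480. For ZNF93 and ZNF486 the SW480 arrays lay around the median feature, so their 2.16-fold and 2.05-fold differences start from a dim signal. ZNF69 read 5.59, 5.41 and 5.74 in SW620 and 4.42, 4.68 and 4.47 in SW480 (1.06). ZNF708 was measured well above the median feature in both lines, with 6.41, 6.57 and 6.34 in SW620 and 5.57, 5.17 and 5.56 in SW480 (1.01). None of these genes had overlapping arrays, and of the 5 all but ZNF69 lie in 1 stretch of the chromosome. Without SW480 replicate 2 the number that rose 2-fold was 3 in place of 5.

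**Figure D2:**
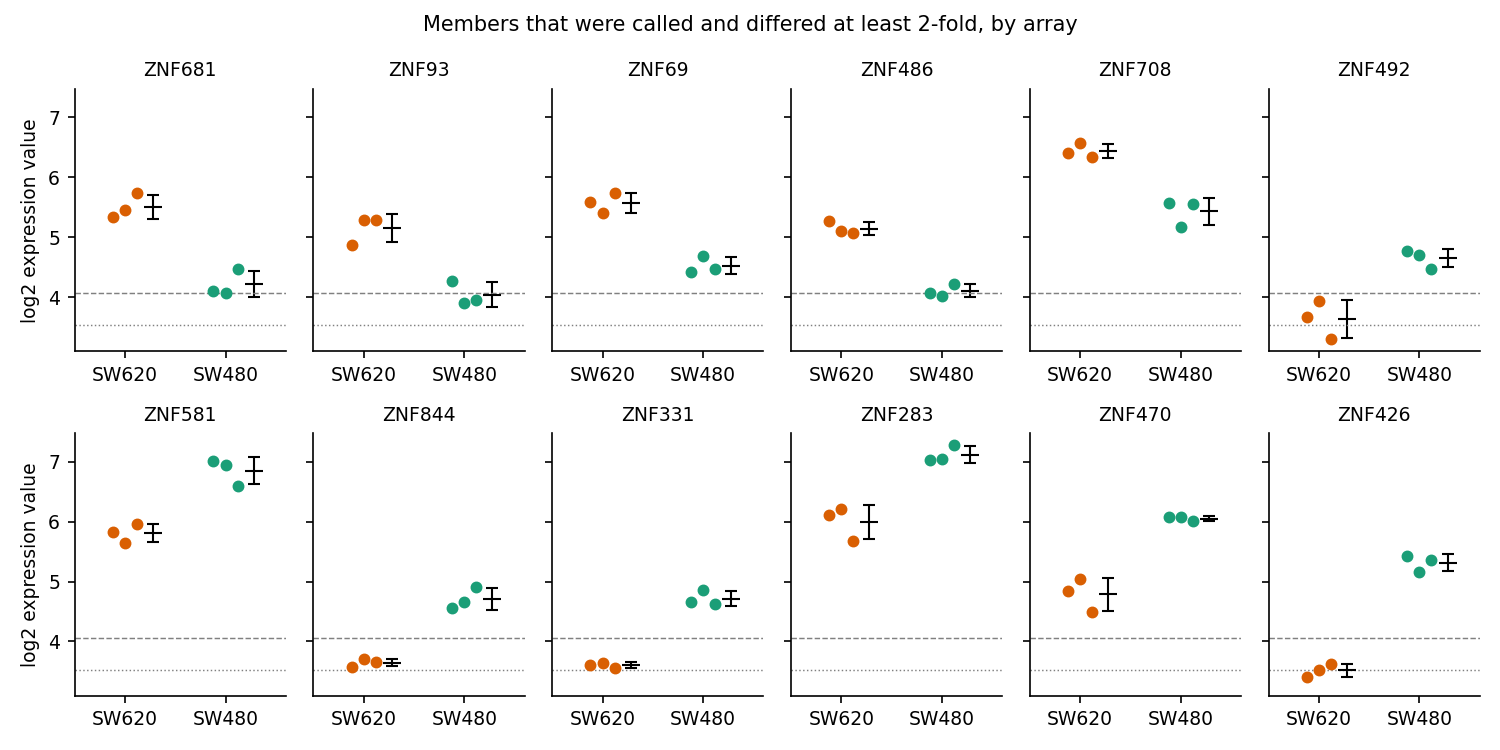
Log2 expression value of the 12 genes that were called and differed at least 2-fold, 1 point per array, with SW620 left of SW480 and the mean ± SD (n = 3) beside the points. The dashed line is the median feature (4.06) and the dotted line the 25th percentile feature (3.53). In every panel the points of the lines do not overlap.

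To ask whether clusters moved as a whole, the protein-coding ZNF genes of RefSeq were put in chromosome order and divided wherever consecutive genes start more than 1000000 bases apart. This gave 16 groups, of which 9 had at least 5 measured members and are called clusters here, each by its first and last gene. RefSeq served for order and spacing only.

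The ZNF101 to ZNF254 cluster, which holds ZNF91 and its relatives, stood on the higher side. Of its 31 measured members, 15 were higher in SW620, 3 were lower and 13 were not called, and the median difference was 0.25 (range -1.02 to 1.29). Of its 20 members above the median feature, 14 were higher and 2 lower, with a median of 0.61, whereas 1 of 11 dimmer ones was higher and 1 lower. Over all genes 16% were called higher, and 22.5% of those above the median feature. Of the 27 higher calls among all members, 15 thus came from this cluster.

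Most of its higher genes lay in 3 runs of measured neighbours, whereas ZNF486, ZNF430 and ZNF676 each stood between genes that were not called. The mean of ZNF676 was 3.48 in SW620 and 3.09 in SW480, both below the near-floor mark of 3.53. ZNF431, ZNF708, ZNF493, ZNF429 and ZNF100 form a run of 5 measured neighbours that all rose, by 0.61 to 1.01. ZNF506, ZNF253 and ZNF93 form another, as do ZNF91, ZNF675, ZNF681 and ZNF254 at the far end. ZNF431 read 7.82, 7.58 and 7.68 in SW620 and 6.72, 6.96 and 6.84 in SW480. ZNF100 read 8.11, 8.03 and 8.10 in SW620, against 7.13, 7.48 and 7.55 in SW480. Both were bright in both lines, and no array of one line reached the other. ZNF91, which as background represses SVA elements, read 6.24, 6.26 and 6.25 in SW620 and 5.69, 5.88 and 5.86 in SW480, a smaller 1.36-fold rise (limma adjusted p = 0.00123). ZNF675, which as background dampens signalling through TRAF6, and ZNF493 were called although their arrays overlapped between the lines (limma adjusted p = 0.0388 and 0.0438). Except for ZNF708, ZNF93, ZNF681 and ZNF486, the cluster genes of this paragraph were singled out after their values were seen.

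The lower genes of the cluster were ZNF101 and ZNF14, its first members, and ZNF492. ZNF14 read 3.30, 3.38 and 3.48 in SW620 and 4.18, 3.86 and 4.10 in SW480. The direction was therefore not shared by the whole cluster. Genes that are no ZNF members are few in this stretch: 5 were measured, of which 1 was higher and 0 lower, with a median of 0.12, and none of them codes for protein. The higher one was the microRNA entry MIR1270 (0.39), named after its value was seen.

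The opposite held for the ZNF302 to ZNF792 cluster, in which all 5 measured members were lower in SW620, against 19.5% of all genes. ZNF302 read 5.92, 5.94 and 6.09 in SW620, against 6.42, 6.90 and 6.77 in SW480 (-0.72, standard error 0.116). ZNF599 read 3.15, 3.34 and 3.46 in SW620 and 3.89, 4.18 and 3.99 in SW480 (-0.70). ZNF599 is the one dim member of the cluster, and its arrays did not overlap. ZNF181, ZNF30 and ZNF792 differed by -0.36, -0.27 and -0.58, and the largest limma adjusted p of the 5 genes was 0.0246, for ZNF30. The single other gene measured between them, LINC01801, differed by -0.0164 and was not called.

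In the ZNF628 to ZNF446 cluster at the end of the long arm, 20 of 60 measured members (33.3%) were lower and 0 higher in limma's test, the rest not being called. Over all genes 19.5% were lower and 16% higher. Of the 37 members above the median feature 16 were lower, against 27.4% of all genes above it. At an unadjusted p below 0.05, 4 of the 60 were higher, and after centring on the 75th percentile 2 were called higher. The lower ones included ZNF470 and ZNF581, and neighbours fell together in places. ZNF776, ZNF586, ZNF552, ZNF587B and ZNF587 form a run of 5 lower neighbours, with differences of -0.94 to -0.31. ZNF548, ZNF17, ZNF749 and ZNF772 form a run of 4. ZNF586 read 3.90, 3.87 and 3.99 in SW620 and 4.73, 4.99 and 4.84 in SW480, and ZNF749 read 5.40, 5.61 and 5.61 in SW620 and 6.29, 6.28 and 6.29 in SW480. Neither gene's arrays overlapped; both are named after their values were seen. ZNF71, also named so, lies beside ZNF470 and read 4.93, 4.93 and 4.99 in SW620, against 5.89, 5.82 and 6.11 in SW480, a 1.98-fold lower signal. The median difference of the cluster was -0.0772 over all 60 members and -0.21 over the 37 with a mean above the median feature, and 21 of the 60 were dim in both lines. Of the 26 other genes measured in this stretch 2 were higher and 6 lower, with a median of 0.0318. They include zinc finger genes with ZFP, ZSCAN and ZIK symbols. ZFP28, ZSCAN5A and ZSCAN22, described further below, are among the lower ones.

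The ZNF175 to ZNF331 cluster had 12 lower and 2 higher members of 32, with a median of -0.0838. Besides ZNF331 its largest change was that of ZNF350, a partner of BRCA1 also known as ZBRK1, which read 5.10, 4.83 and 4.70 in SW620 and 5.63, 5.60 and 5.47 in SW480 (-0.69). ZNF350 is followed by ZNF615, ZNF614 and ZNF432, which all fell. Of 14 other genes measured in this stretch none was called in either direction by limma at an adjusted p below 0.05. At an unadjusted p below 0.05 the count was again 0. These 14 include FPR, SIGLEC and VN1R genes and microRNA entries, and their signal level was not compared with that of the members. Over all genes, 10.5% of those at or below the median feature were called. In the ZNF565 to ZNF573 cluster 7 of 26 were lower and 1 higher, led by ZNF383 (-0.66) and ZNF567 (-0.55). In the ZNF575 to ZNF296 cluster 7 of 24 were lower and 1 higher, led by ZNF283 and ZNF112 (-0.75). Both clusters thus had more lower than higher calls, at 26.9% and 29.2% lower against 19.5% of all genes. Of 20 other genes measured in the ZNF575 to ZNF296 stretch, 5 were lower and 2 higher, so lower calls there were not limited to members. In the ZNF565 to ZNF573 stretch 1 of 6 other genes was lower and 0 higher. Among their members above the median feature 7 of 18 and 7 of 19 were lower, against 27.4% of all genes above it.

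The clusters of the short arm nearer its end were mixed, and over all genes 16% were called higher and 19.5% lower. ZNF554 to ZNF77 had 3 lower members of 5, ZNF554 (-0.61), ZNF555 (-0.53) and their neighbour ZNF556. ZNF557 to ZNF846 had 3 higher and 2 lower of 14, the lower ones being ZNF426 and ZNF558 (-0.67). ZNF653 to ZNF791 had 4 higher, among them ZNF69, and 1 lower, ZNF844, of 24. Of its members 18 had a difference above 0 and the median was 0.13, but 19 of the 24 were not called. For those, a small difference and noise between arrays cannot be told apart. Outside the clusters ZNF473, whose product takes part in the processing of histone transcripts, fell by 0.66 on the log2 scale; it is named after its value was seen.

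**Figure D3:**
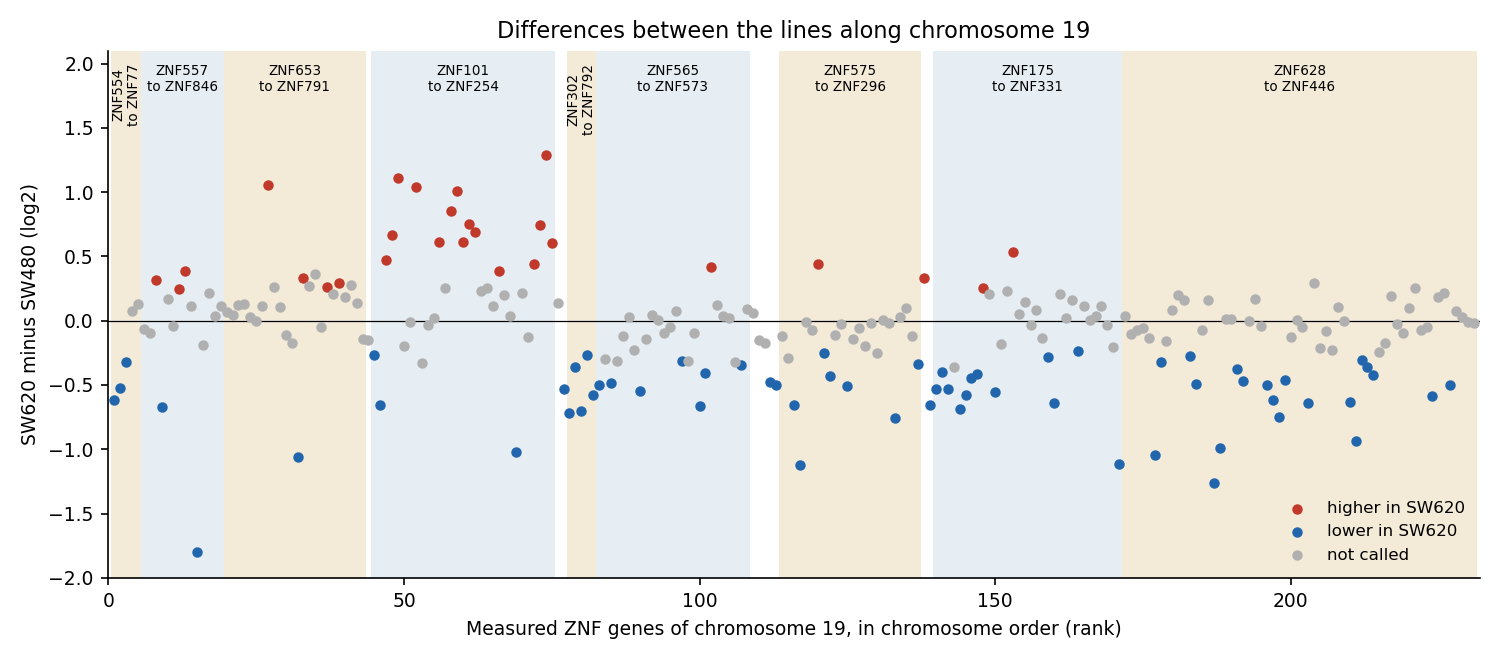
Difference between the lines (SW620 minus SW480, log2) for each of the 231 genes in chromosome order, with 1 point per gene and shaded bands for the 9 clusters. Red points were called higher and blue points lower in SW620. Red points gather in the ZNF101 to ZNF254 band (15 of 31), and blue points prevail from the ZNF302 to ZNF792 band onward.

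**Figure D4:**
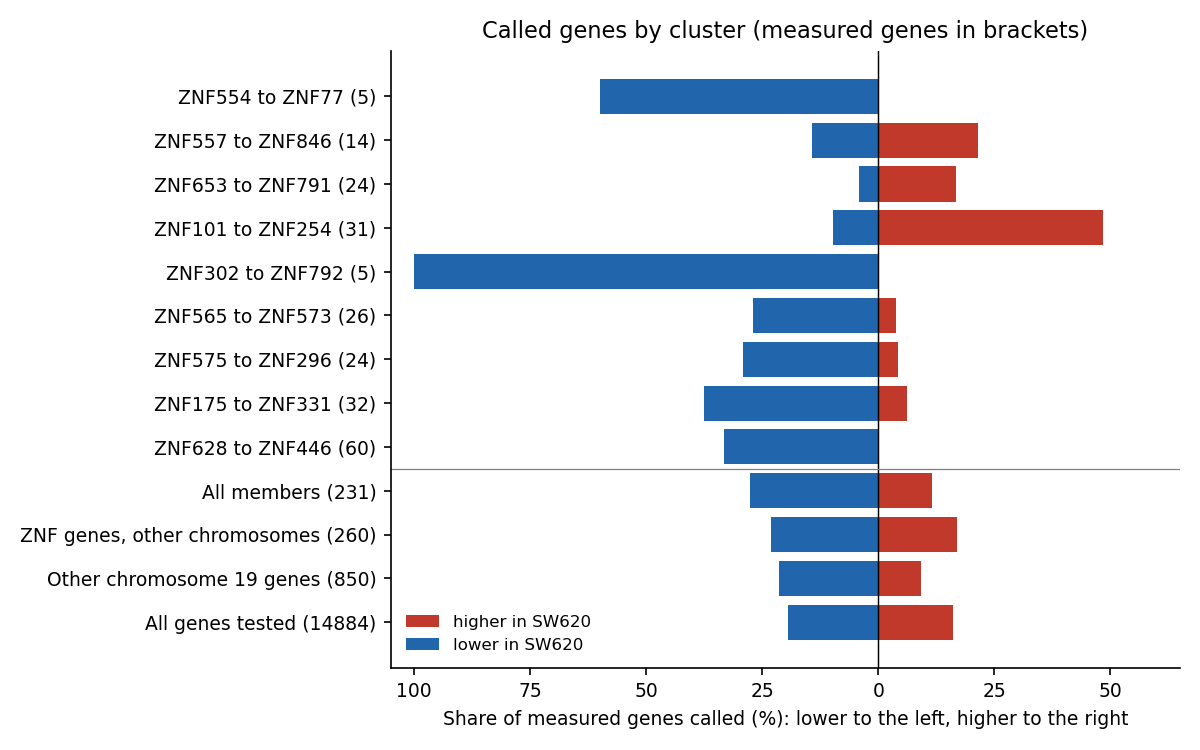
Share of measured genes called lower (left) and higher (right) in SW620 for each cluster and, below the line, for all members and 3 wider groups, with the number of measured genes in brackets. The ZNF101 to ZNF254 cluster has 15 of 31 genes higher, the ZNF302 to ZNF792 cluster 5 of 5 lower, and all genes tested 16% higher and 19.5% lower.

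The promoters of the cluster with the higher genes were read from RefSeq windows of 300 bases (250 before and 50 after a start, build GRCh38.p14) to see what its members share. Windows were found for 203 of the 231 members, 36 of which have several starts. Of these, 5 are shown from the ZNF101 to ZNF254 cluster, namely 3 genes that rose at least 2-fold, 1 close copy that was not called, ZNF90, and the gene that fell at least 2-fold, ZNF492. They are ZNF681 at chr19:23758842-23759141 (minus strand), ZNF93 at chr19:19900696-19900995 (plus strand), ZNF486 at chr19:20166964-20167263 (plus strand), ZNF90 at chr19:20077750-20078049 (plus strand) and ZNF492 at chr19:22634074-22634373 (plus strand), each written along its own strand, and capitals mark the motif CCAATCAG or its reverse complement, a form of the CCAAT box bound by NF-Y.
ZNF681: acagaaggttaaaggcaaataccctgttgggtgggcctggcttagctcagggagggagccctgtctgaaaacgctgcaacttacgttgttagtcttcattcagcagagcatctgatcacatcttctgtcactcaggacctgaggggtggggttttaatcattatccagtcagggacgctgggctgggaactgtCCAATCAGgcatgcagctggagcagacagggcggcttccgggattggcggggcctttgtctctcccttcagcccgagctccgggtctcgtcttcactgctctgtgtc
ZNF93: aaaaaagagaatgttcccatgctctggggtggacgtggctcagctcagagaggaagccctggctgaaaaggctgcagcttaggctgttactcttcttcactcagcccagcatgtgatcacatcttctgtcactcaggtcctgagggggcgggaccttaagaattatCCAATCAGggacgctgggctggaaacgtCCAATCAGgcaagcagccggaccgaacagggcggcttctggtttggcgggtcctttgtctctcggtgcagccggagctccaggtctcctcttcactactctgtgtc
ZNF486: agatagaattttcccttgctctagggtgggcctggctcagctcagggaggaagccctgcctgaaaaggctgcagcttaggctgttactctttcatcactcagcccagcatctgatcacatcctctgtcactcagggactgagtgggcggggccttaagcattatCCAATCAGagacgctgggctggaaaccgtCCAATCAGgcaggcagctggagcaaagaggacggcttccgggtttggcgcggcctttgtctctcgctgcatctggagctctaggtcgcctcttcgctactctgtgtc
ZNF90: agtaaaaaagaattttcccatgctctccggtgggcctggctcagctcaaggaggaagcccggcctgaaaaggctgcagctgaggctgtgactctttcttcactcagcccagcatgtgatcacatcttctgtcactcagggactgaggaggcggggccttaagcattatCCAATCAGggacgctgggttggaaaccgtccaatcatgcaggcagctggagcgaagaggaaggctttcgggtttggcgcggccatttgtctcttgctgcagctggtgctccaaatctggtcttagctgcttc
ZNF492: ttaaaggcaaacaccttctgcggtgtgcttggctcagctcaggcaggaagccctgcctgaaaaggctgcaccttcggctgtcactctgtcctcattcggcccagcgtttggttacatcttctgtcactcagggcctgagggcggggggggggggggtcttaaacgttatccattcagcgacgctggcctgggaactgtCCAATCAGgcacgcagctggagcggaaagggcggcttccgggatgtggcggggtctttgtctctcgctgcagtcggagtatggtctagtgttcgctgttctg

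These windows are copies of each other. The windows of ZNF93 and ZNF486 were identical at 87.1% of aligned positions, and those of ZNF90 and ZNF486 at 86.9%, although ZNF90 read 4.26 on average in both SW620 and SW480 and was not called. The windows of ZNF492 and ZNF681, which moved in opposite directions, were identical at 76.1%. Over all 276 pairs within the cluster the median identity was 76.0%, against 50.4% over 17604 pairs of genes from different groups. Pairs of higher genes had a median of 76.7% and pairs without a higher gene 74.2%. Close likeness of these windows thus went with all classes of call in the cluster. Probe sequences were not used here, and how far the probes of such near copies read each other's transcripts was not tested.

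The motif CCAATCAG, searched on both strands and chosen after shared words of the windows had been seen, was in 24 of 25 windows of this cluster (96%), against 20.6% of all member windows and 3.97% of all 35116 RefSeq windows. It was present in 12 of 12 windows of higher genes, 3 of 3 of lower genes and 9 of 10 of genes that were not called. In the ZNF653 to ZNF791 cluster, where most genes were not called, 80% of windows held it, and in the ZNF628 to ZNF446 cluster 0 of 61 did. The ETS motif CCGGAAG was in 68% of the ZNF101 to ZNF254 windows, 38.1% of all member windows and 10.3% of all RefSeq windows. A match is a description of these letters and not of a bound site.

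The windows also differed in CG dinucleotides, the sites of DNA methylation. The ZNF101 to ZNF254 windows held a median of 10 CG (range 8 to 18), the fewest of the 9 clusters, against 20 over all member windows and 14 over all RefSeq windows. Within this cluster the median was 10 for higher genes, 16 for lower genes and 9.5 for genes not called. Windows of the ZNF302 to ZNF792 cluster had a median of 26 and those of the ZNF628 to ZNF446 cluster one of 23. Over all members, windows of lower genes had a median of 22 CG, of higher genes 10 and of genes not called 21. Lower genes and those not called were thus alike in this count. Of the 21 windows of higher genes, 12 lie in the ZNF101 to ZNF254 cluster. Those outside it held 6, 8, 11, 13, 16, 17, 18, 22 and 22 CG, mostly more than the median of 10 in the cluster. For the 2 genes with the largest falls, ZNF426 at chr19:9538596-9538895 (minus strand) and ZNF470 at chr19:56567218-56567517 (plus strand), the windows held 19 and 21 CG, shown in capitals.
ZNF426: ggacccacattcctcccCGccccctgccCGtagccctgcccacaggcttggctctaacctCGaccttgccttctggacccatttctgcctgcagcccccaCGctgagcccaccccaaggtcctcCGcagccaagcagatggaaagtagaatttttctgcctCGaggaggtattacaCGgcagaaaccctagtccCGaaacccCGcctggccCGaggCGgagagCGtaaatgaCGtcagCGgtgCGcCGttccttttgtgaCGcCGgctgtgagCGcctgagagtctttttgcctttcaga
ZNF470: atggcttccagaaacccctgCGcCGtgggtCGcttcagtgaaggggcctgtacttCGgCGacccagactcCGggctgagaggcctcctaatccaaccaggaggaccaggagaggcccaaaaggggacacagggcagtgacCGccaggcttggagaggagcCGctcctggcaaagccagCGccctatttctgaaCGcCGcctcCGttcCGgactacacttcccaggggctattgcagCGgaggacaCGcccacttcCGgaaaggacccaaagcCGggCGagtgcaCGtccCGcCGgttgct

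**Figure D5:**
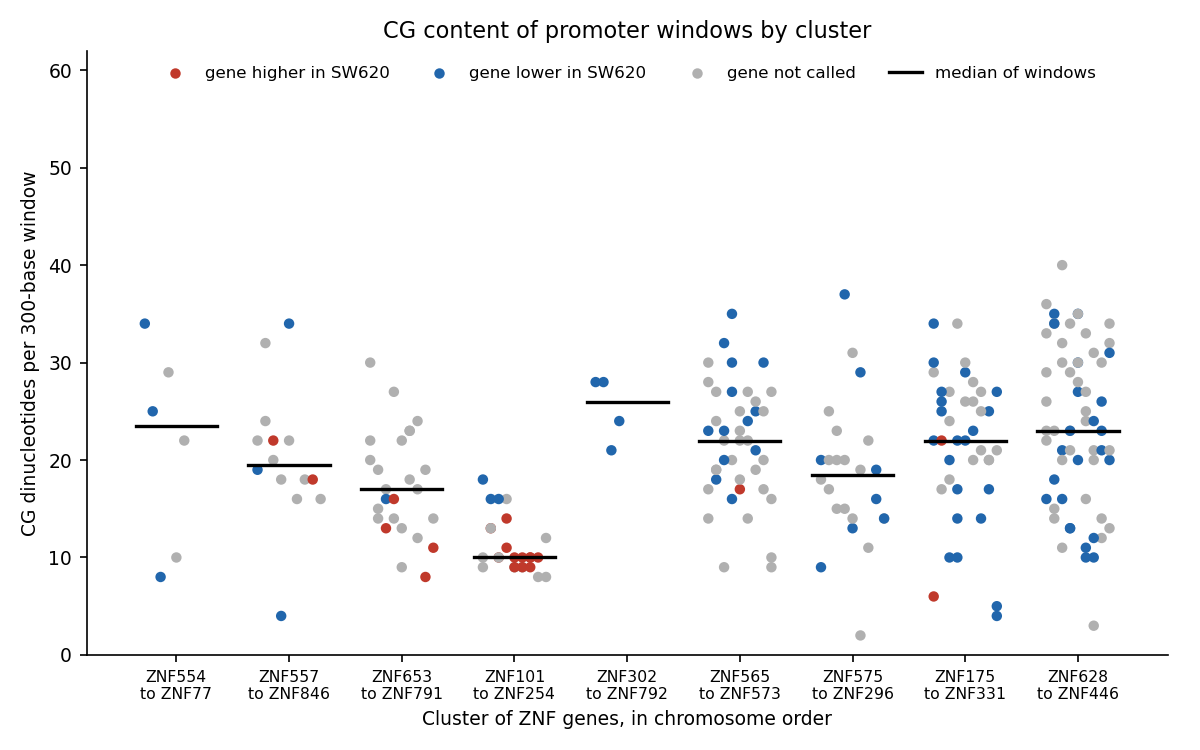
Number of CG dinucleotides in each 300-base promoter window, 1 point per window, for the 9 clusters in chromosome order, coloured by the call of its gene. Black bars are medians of the windows of a cluster. The ZNF101 to ZNF254 cluster is lowest, with a median of 10, and the ZNF302 to ZNF792 cluster highest, with 26.

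A further set of members lay near the floor in both lines. Of the 231 genes, 22 were below the 25th percentile feature in both, 6 in SW620 alone and 9 in SW480 alone. By line these are 28 members in SW620 and 31 in SW480, against 2438 and 2511 of all 14884 genes. Below the median feature in both lines were 27.3% of the members and 33.4% of all genes. The 22 genes include some known as targets of promoter methylation in tumours, named here after their values were seen. ZNF582 read 3.05, 3.32 and 3.32 in SW620 and 2.95, 3.05 and 3.22 in SW480. ZNF471 read 3.25, 2.89 and 2.94 in SW620 and 2.83, 2.93 and 2.84 in SW480. For both genes the arrays of the lines overlapped. ZNF677 and the antisense transcript ZNF667-AS1 were likewise below 3.53 on average in both lines and differed by 0.11 and -0.0726. No methylation was measured in these samples.

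At the other end, ZNF121, ZNF146, ZNF766 and ZNF480 had the highest values of the members, and a feature's value also depends on its probes. ZNF121 read 9.93, 9.99 and 9.77 in SW620 and 9.99, 10.13 and 10.13 in SW480. ZNF146, a protein made almost wholly of zinc fingers, read 8.34, 8.31 and 7.90 in SW620 and 8.45, 8.43 and 8.57 in SW480. None of these genes passed the test (limma adjusted p of 0.135 for ZNF121, 0.0603 for ZNF146, 0.156 for ZNF766 and 0.0568 for ZNF480). Calls of ZNF121, ZNF146 and ZNF480 were gained under some other settings.

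Several features of a gene did not always move alike. ZNF383 fell by 0.66 on its brighter feature, while its other feature was dim and differed by -0.0232. ZNF865 was not called on its brightest feature (-0.0573), yet another of its 3 features differed by -0.51 (limma adjusted p = 0.00839 over all features). ZNF582-DT, a non-coding transcript beside ZNF582, fell by 0.28 (limma adjusted p = 0.0342), a call that rests on 1 dim feature and on most of the arrays. With the mean of its features it differed by -0.12, and leaving out SW620 replicate 1, SW620 replicate 3, SW480 replicate 1 or SW480 replicate 2 gave adjusted p from 0.0643 to 0.132.

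The genes that carry out KRAB repression were measured in part, 18 of 24 listed symbols. Of these 6 were higher in SW620, 3 lower and 9 not called, with a median of 0.0484, and the share called, 50%, stands beside 35.6% of all genes and 49.8% of those above the median feature, and the median level of the list was 8.06. CHD3, a helicase of the NuRD complex that binds TRIM28, rose 2.23-fold (7.08 ± 0.126 in SW620 and 5.92 ± 0.0515 in SW480, SD, n = 3 each). CBX5, which encodes HP1 alpha, rose 1.80-fold, and the deacetylase HDAC2 rose 1.56-fold. MPHOSPH8, the H3K9 methyl reader of the HUSH complex, fell by 0.93 on the log2 scale, to 6.80 ± 0.162 in SW620 against 7.73 ± 0.108 in SW480. TRIM28 itself, named after its value was seen, had 9.38 in SW620 and 9.48 in SW480 and was not called (limma adjusted p = 0.404). ZNF274, a member that as background recruits SETDB1 to the ends of other ZNF genes, differed by -0.0753 and was not called either.

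Among genes that set or remove DNA methylation and H3K9 methylation, 23 of 29 were measured, of which 7 were higher, 5 lower and 11 not called (median 0.0897). The share called was 52.2%, against 35.6% of all genes and 49.8% of those above the median feature. The median level of the list was 6.94. TET1 and TET2, which oxidise 5-methylcytosine, went opposite ways. TET1 rose 3.33-fold (7.88 ± 0.117 in SW620 and 6.14 ± 0.0633 in SW480), whereas TET2 was 2.95-fold lower in SW620 (5.49 ± 0.118 in SW620 and 7.05 ± 0.0651 in SW480, SD, n = 3 each). KDM3A, a demethylase of H3K9, fell by 0.64 on the log2 scale and PHF8, another histone demethylase, rose by 0.54. The listed genes were tested singly, and a link between them and the ZNF genes was not tested.

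Zinc finger genes of chromosome 19 with other symbols (ZFP, ZSCAN, ZIK and ZBTB) numbered 14, of which 1 was higher and 6 lower in SW620, with a median of -0.16. These shares, 7.14% and 42.9%, stand beside 16% and 19.5% of all genes, and 7 of the 14 were dim in both lines. ZFP28, which lies beside ZNF470, read 4.32 ± 0.0810 in SW620 and 5.60 ± 0.233 in SW480 (SD, n = 3 each), a 2.42-fold lower signal. ZSCAN5A (-0.82), ZFP30 (-0.55) and ZSCAN22 (-0.53) fell as well.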

How the data were processed

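Total RNA of SW620 and SW480 spheroids was hybridised to 6 arrays, 3 per line. The deposited log2 values come from RMA in Partek, as the authors ran it per the submitters' processing notes. The sources used here give neither versions nor settings nor the base of the logarithm; base 2 was read from the range of the data. Of 53616 features 16098 had exactly 1 platform gene symbol, and all 16098 matched RefSeq (GRCh38.p14). The remaining 37518, without a symbol or with more than 1, were not used. The feature with the highest mean stood for each of 14884 genes, with no filter on dim ones.

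Differences are SW620 minus SW480, from a two-sided moderated test in limma 3.58.1 (R 4.3.3) without covariates, with 8.39 prior degrees of freedom and moderated standard errors. Calls needed an adjusted p below 0.05 over all genes. Clusters needed 5 measured members and a gap of at most 1000000 bases. Promoter windows were aligned globally with Biopython 1.88, taking the first window of a gene.

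The members, lists and rules were chosen with earlier results of these data known. Named were the members with at least a 2-fold call, the 2 largest calls per cluster, the 4 brightest members, near-floor members, genes whose features disagree, and the 4 largest calls of each list. Marker lists for leukocytes, fibroblasts and endothelium were measured in 1, 1 and 3 genes. On simulated data of 14884 genes, 38 of 50 changes of 0.5 and 48 of 50 changes of 1 on the log2 scale were recovered. There were 2 false calls among 188. With 50 genes changed at each size, the changed share was far below the 35.6% of genes called in the data. These rates therefore need not hold for the data.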

Additional observations from a re-analysis of the deposited data

How the results depend on the processing

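The member counts and median, the near-floor counts and the named genes were recomputed under 10 other settings and without each array in turn. A fit over protein-coding genes alone and the cluster results were added later, with the data in view. Clusters were recomputed for ZNF101 to ZNF254, ZNF302 to ZNF792 and ZNF628 to ZNF446 only. The other clusters, neighbouring genes, comparison groups, lists, non-overlap counts and promoter windows were not recomputed. Members called higher ran from 18 at an adjusted p below 0.01 to 30 after centring on the 75th percentile, and members called lower from 50 to 67. The median difference of the members was -0.0181 after centring on the 75th percentile, -0.12 over genes above the median feature and -0.0772 over genes above the 25th percentile feature. The count near the floor in SW620 was 0 after centring on the 75th percentile and ran from 0 to 2 without 1 array, and the count at least 2-fold higher from 3 to 5. For the ZNF101 to ZNF254 cluster the median was 0.61 over genes above the median feature, 0.45 over those above the 25th percentile feature, and from 0.28 to 0.37 without 1 array. For the ZNF302 to ZNF792 cluster it was -0.47 over genes above the median feature. For the ZNF628 to ZNF446 cluster it was -0.21 and -0.11 under the same filters and from -0.12 to -0.0906 without 1 array. Its count of higher genes was 2 after centring on the 75th percentile, 1 over genes above the median feature, 1 over protein-coding genes, and from 0 to 1 without 1 array; 4 of its members were higher at an unadjusted p below 0.05. ZNF865, never called on this feature, ran from -0.14 to 0.0469 without 1 array, above 0 without SW620 replicate 3. Of 39 named genes, ZNF582-DT alone lost its call, and ZNF121, ZNF146 and ZNF480 gained one, under some settings.

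With the replicate number as a block 26 members were higher and 65 lower. Arrays of the same number did not deviate together (r from -0.0234 to -0.00889 across genes), so the numbers pair nothing.

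The arrays of a line are technical replicates, so culture-to-culture spread is unknown. RMA can understate folds near the floor, and whether it did so here was not tested, nor was cross-reading between probes of near copies.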
